A study of Bos taurus with 68 samples.

Results

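The enzymes that activate long-chain fatty acids and oxidise them in mitochondria were followed in bovine liver as 11 cDNA clones of 9 genes: CPT1A, CPT2, ACSL1, ACSL5, ACADVL, HADH, ECI1, ETFB and HSD17B10. A clone belonged to the set if the array's annotation, with symbols updated through gene identifiers, gave it 1 of these names. The set is 11 of the 5693 annotated clones, and all 11 were among the 5280 clones that could be tested. CPT1A and ACSL5 had 2 clones each, which were kept apart as CPT1A A (rows 7575 and 7576 of the table), CPT1A B (rows 6079 and 6080), ACSL5 A (rows 10171 and 10172) and ACSL5 B (rows 9133 and 9134).

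Liver RNA of 5 cows, numbered 6934, 6983, 7079, 7186 and 7188, was hybridised to 2-colour arrays against a reference standard RNA on days -65, -30, -14, 1, 14, 28 and 49 relative to calving. The labels give no breed, age, diet or treatment, and they do not say what the reference RNA was made from. Days 14, 28 and 49 are called lactation, and days -65, -30 and -14 prepartum. The values come from the larger of the deposited tables, in which days -65, -30, 1 and 28 have all 5 cows, days -14 and 14 have 3, and day 49 has 4. Each of these 30 cow-days has an array with liver in Cy3 and an array with liver in Cy5. All values are log2 ratios of liver over reference relative to the median row of the array. This direction is only likely, because the numerator of the deposited ratio is not given, and if liver was the denominator every sign below turns, a fold above the reference becomes a fold below it, and a percentile counts from the other end.

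Long-chain fatty acids are joined to coenzyme A by acyl-CoA synthetases such as ACSL1 and ACSL5. CPT1A on the outer and CPT2 on the inner mitochondrial membrane then pass the acyl group over carnitine into the matrix, where beta-oxidation shortens it through dehydrogenation, hydration, a second dehydrogenation and thiolysis. Around calving, cows mobilise fat from adipose tissue, and the liver takes up fatty acids that it oxidises, turns into ketone bodies or stores as triglyceride.

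The tissue check rested on 5 clones of hepatocyte markers, which were also among the genes used to infer the ratio's direction. All 5 had ratios above the reference, with a median of 2.46, and the sodium-bile acid transporter SLC10A1 and transferrin (TF) both lay at 3.78. APOA1 lay at only 0.060. Of 16 clones of stellate cell and matrix markers, which also served to infer the direction, 12 lay below the reference. Among them, vimentin (VIM) lay at -4.11 and -4.20. Before the signs were turned, the pair of arrays failed to correlate below 0 in 5 of the 30 cow-days. These were day 1 of cow 7079, day 14 of cows 6983 and 7186, and day 49 of cows 6934 and 7188. The other 25 pairs reached only from -0.53 (cow 6983, day 28) to -0.0026 (cow 6934, day 28). Some of them barely opposed, such as cow 7079 on day 49 at -0.0048 and cow 7186 on day -14 at -0.020. An array held values for 14607 to 16288 rows, and the number of cows and arrays limits the precision.

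All 11 clones had higher ratios in liver than in the reference by limma over the 5 cow means (Benjamini-Hochberg adjusted p under 0.05), against 22.3% of all tested clones called higher. The median of the 11 ratios was 1.59, and that of all tested clones was -0.0092. The mean was above 0 in 5 of 5 cows for each of the 11, as it was for 22.4% of all clones. The spread of the reference RNA itself is not part of this test.

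The activating enzymes stand first in the pathway. ACSL1, a synthetase of the mitochondrial outer membrane and endoplasmic reticulum, had a mean ratio of 1.95 ± 0.62 (SD, n = 5 cows), 3.85-fold the reference. Its cow means were 1.64, 2.66, 2.08, 2.30 and 1.04 for cows 6934, 6983, 7079, 7186 and 7188. Cow 7188 was the lowest and cow 6983 the highest. ACSL5 A lay at 1.89 ± 0.47, with cow means between 1.42 and 2.61. ACSL5 B, the other clone of that synthetase, lay at only 0.30 ± 0.24 (adjusted p = 0.023). Its call was lost in 6 of 14 other settings. These were the fits without cow 7079 (adjusted p = 0.160) and without cow 7188 (adjusted p = 0.0848), without centring (0.067), on a common median absolute deviation (0.351), with both tables joined (0.0587) and with strongly discordant orientations set missing (0.147), the last a setting chosen after seeing the data. It read 1.16 with liver in Cy3 and -0.63 with liver in Cy5, and its 2 spots correlated at 0.40, against a median of 0.74 over all clones. With only the Cy5 arrays it was called lower in liver, at -0.66 (adjusted p = 0.00644).

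Both steps of the carnitine shuttle lay above the reference. CPT1A, the malonyl-CoA-sensitive entry step, had a ratio of 1.52 ± 0.32 by clone A and 1.59 ± 0.39 by clone B (SD, n = 5 cows). CPT2, which rebuilds acyl-CoA in the matrix, lay at 0.42 ± 0.25, and its cow means reached from 0.19 to 0.82. Its ratio was 0.064 with only the arrays that carried liver in Cy3, where the call was lost (adjusted p = 0.702).

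Among the enzymes of the spiral, HSD17B10 had a mean ratio of 3.53 ± 0.33 (SD, n = 5 cows), 11.6-fold the reference and at the 99.6th percentile of all tested clones if liver was the numerator. HSD17B10 is a short-chain hydroxyacyl-CoA dehydrogenase that also acts in isoleucine breakdown and in mitochondrial RNase P. Its 30 cow-day values lay between 1.86 and 5.25. ACADVL, which carries out the first dehydrogenation of long acyl chains, lay at 1.82 ± 0.26, with cow means of 1.91, 1.79, 1.77, 2.17 and 1.44 in the order of cow numbers. HADH, the dehydrogenase of medium and short hydroxyacyl chains, lay at 1.71 ± 0.56, with cow means of 1.12, 2.27, 1.73, 2.28 and 1.17 in the same order. ETFB, a subunit of the flavoprotein that takes electrons from the acyl-CoA dehydrogenases, lay at 1.25 ± 0.20. ECI1, the isomerase needed for unsaturated chains, lay at 0.73 ± 0.28, and its call was lost with only the arrays that carried liver in Cy3 (adjusted p = 0.0891).

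**Figure D1:**
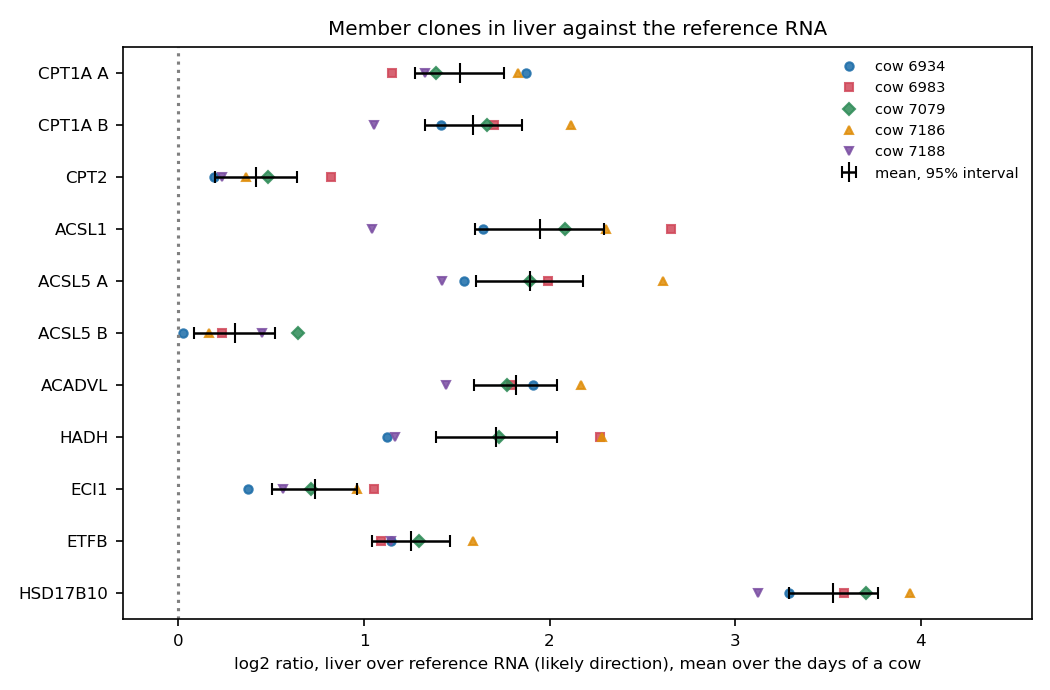
Log2 ratio of liver over the reference RNA (horizontal axis, likely direction) for each of the 11 clones. Each coloured point is the mean over the days of 1 cow, and the black bar is the mean of the 5 cows with its 95% interval from limma. All points lie above 0, HSD17B10 lies farthest from it at 3.53, and ACSL5 B lies nearest at 0.30.

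Over the 7 days, 0 of 11 clones passed the moderated F test of a day effect (limma, adjusted p under 0.05), where 0.0189% of all tested clones passed. At an unadjusted p under 0.05 there were 4 of 11, namely CPT1A A, ACSL5 B, ETFB and HSD17B10, against 5.21% of all clones. CPT1A A had the highest F of the 11, at 3.55 (p = 0.0121, adjusted p = 0.848 by limma). With weights on the cow-days, 2 of 11 passed, CPT1A A (F = 6.44, adjusted p = 0.0322) and HSD17B10 (F = 5.49, adjusted p = 0.0447), in a setting where 195 of the 5280 clones passed.

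CPT1A A had its lowest day means around calving, on days -14 and 1. Its ratios were 1.88, 1.98, 1.23, 1.66 and 2.58 on day -65 and 1.71, 1.16, 1.38, 2.90 and 1.63 on day -30, for cows 6934, 6983, 7079, 7186 and 7188. On day -14 they were 0.40, 0.80 and 1.16 for cows 6983, 7186 and 7188, and on day 1 they were 1.32, 0.90, 1.07, 1.28 and 0.42 for the 5 cows. Days -14 and 1 were singled out because their means were the lowest. Their 8 values reached up to 1.32 and overlapped those of days -65 and -30, which began at 1.16. On day 14 cows 6983, 7079 and 7186 had 0.54, 1.55 and 1.88. On day 28 the 5 cows had 2.80, 1.93, 1.97, 2.36 and 0.90, and on day 49 cows 6934, 7079, 7186 and 7188 had 1.68, 1.12, 1.95 and 1.30. Cow 7188 was the lowest of the 5 on days 1 and 28. CPT1A B, the other clone, had its lowest day means on days 49 and 28, at 1.25 and 1.39, and averaged 1.86 on day 1.

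By day the mean ratios of CPT1A A were, low to high, 0.78 ± 0.38 on day -14 (SD, n = 3), 1.00 ± 0.36 on day 1 (n = 5), 1.33 ± 0.70 on day 14 (n = 3), 1.51 ± 0.37 on day 49 (n = 4), 1.75 ± 0.67 on day -30, 1.87 ± 0.49 on day -65 and 1.99 ± 0.70 on day 28 (n = 5 each). No neighbours in this order differed by more than the larger of their SDs. Over all 11 clones, 1 of 66 neighbouring pairs of days did so, ACADVL with 1.29 ± 0.47 on day 49 and 1.79 ± 0.35 on day -14.

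**Figure D2:**
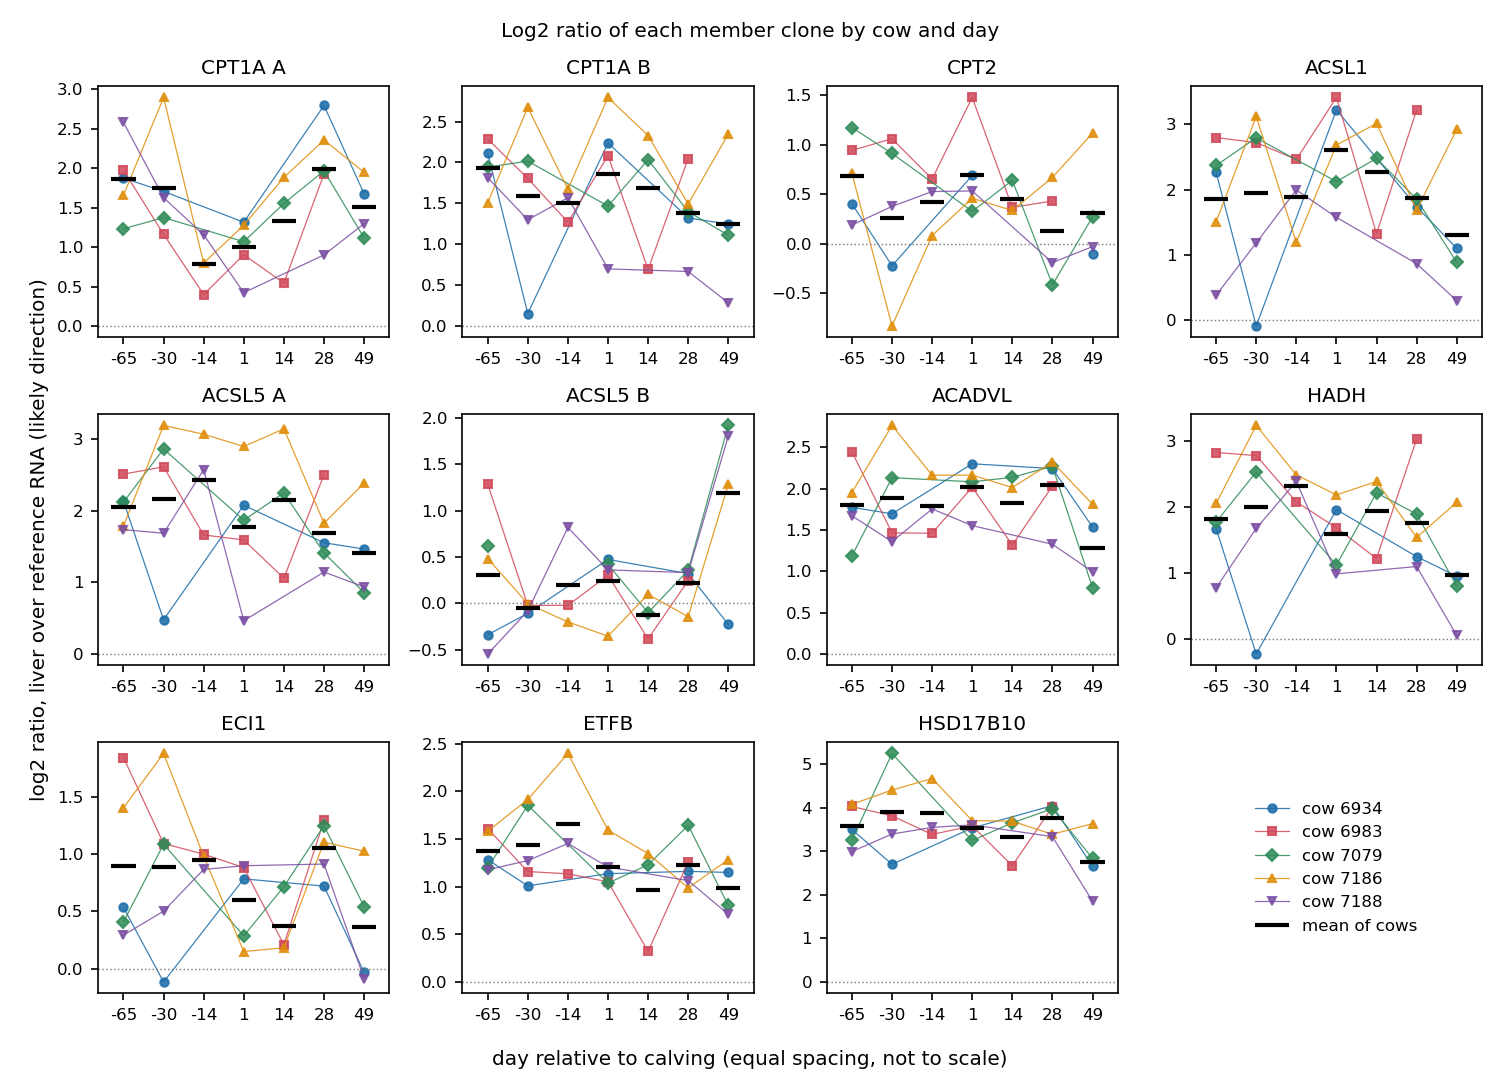
Log2 ratio of liver over reference (vertical axis, likely direction, a scale of its own in each panel) against day relative to calving for the 11 clones. Coloured points joined by lines are single cows, and black bars are the mean of the cows measured on a day. CPT1A A is lowest on days -14 and 1, with means of 0.78 and 1.00, and 7 of the 11 clones have their lowest day mean on day 49. Day 49 has only 4 of the 5 cows, so its means are not directly comparable with those of days with all 5. On day 49 the pairs of arrays of cows 6934 and 7188 failed to correlate below 0 before the signs were turned. That of cow 7079 correlated at only -0.0048. How many of all clones have their lowest day mean on day 49 was not counted.

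Day 1 was set against day -30 as calving against the dry period. Of the 11 clones, 0 passed (limma, adjusted p under 0.05), where 0.0189% of all clones did. Estimates lay below 0 for 6 of 11, against 57.1% of all clones. At an unadjusted p under 0.05 there was 1 of 11, CPT1A A, against 8.37% of all clones in either direction and 7.08% lower. CPT1A A averaged 1.00 on day 1, against 1.75 on day -30, a difference of -0.76 ± 0.30 (SE, adjusted p = 0.525 by limma, unadjusted p = 0.0194). It was lower on day 1 in 5 of 5 cows, as were 5.65% of the clones with all 5 cows. The differences per cow were -0.39, -0.26, -0.31, -1.62 and -1.21 in the order of cow numbers, so cows 7186 and 7188 gave most of the mean. ACSL1 differed by 0.66 ± 0.50, and by -0.0056 without cow 6934, whose ACSL1 ratio was -0.098 on day -30. The other 9 clones had estimates between -0.41 and 0.44. Among them was CPT1A B, the other clone of that gene, at 0.27 ± 0.37 (SE) and higher on day 1 in 3 of 5 cows. The median of the 11 was -0.24, against -0.056 for all clones. Its direction rested on single cows, since it was 0.028 without cow 7079 and 0.072 without cow 7186, with 5 of 11 below 0 in each.

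Markers of other liver cells mostly had estimates below 0 in the same comparison, as did 57.1% of all clones. This held for 14 of 16 clones of Kupffer cells and macrophages (median -0.40), 14 of 16 of stellate cells and matrix (median -0.51), 6 of 8 of endothelium (median -0.21) and 4 of 4 of lymphocytes (median -0.33). Hepatocyte markers had 3 of 5 below 0 and a median of -0.40, and bile duct markers 2 of 5 and a median of 0.14. The mean of the 16 Kupffer and macrophage clones, relative to each clone's own mean, ranged from -0.34 to 0.014 on day 1, against -0.42 to 1.06 on day -30. None of these marker clones passed (limma, adjusted p under 0.05), and their part in the difference of CPT1A A was not tested. In whole liver, fewer cells of a type and less RNA per cell cannot be told apart.

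Day 28 was set against day 1 as early lactation against calving, again with all 5 cows. Of the 11 clones, 0 passed (limma, adjusted p under 0.05), where 0% of all clones did. At an unadjusted p under 0.05 there were 2, CPT1A A and CPT2, against 7.82% of all clones. Estimates lay below 0 for 5 of 11, against 38.1% of all clones. CPT1A A averaged 1.99 on day 28, against 1.00 on day 1, a difference of 0.99 ± 0.30 (SE, adjusted p = 0.406 by limma, unadjusted p = 0.00312). It was higher on day 28 in 5 of 5 cows, as were 6.22% of all clones with 5 cows, and by 1.48, 1.02, 0.90, 1.08 and 0.48 in the order of cow numbers. The difference was 1.00 with only the Cy3 liver arrays and 0.98 with only the Cy5 liver arrays. The estimate stayed between 0.87 and 1.25 over 21 other settings, with adjusted p from 0.111 upwards. This comparison and the one before it share the day 1 samples, so a low day 1 enters both. Marker clones lay mostly above 0 here, as did most of all clones, of which 38.1% lay below 0. Above 0 were 12 of 16 of Kupffer cells and macrophages (median 0.28), 11 of 16 of stellate cells and matrix (median 0.33) and 6 of 8 of endothelium (median 0.31). So were 4 of 4 of lymphocytes (median 0.47), 4 of 5 of hepatocytes (median 0.18) and 3 of 5 of bile duct (median 0.011). None of them passed, and their part in the difference was not tested.

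The other clone of CPT1A had an estimate of the opposite sign. CPT1A B averaged 1.39 on day 28, against 1.86 on day 1, a difference of -0.47 ± 0.37 (SE, adjusted p = 0.827), and it was lower on day 28 in 5 of 5 cows, as were 3.07% of all clones. The differences per cow were -0.92, -0.037, -0.069, -1.30 and -0.032 in the order of cow numbers, so cows 6983, 7079 and 7188 lay close to 0. The estimate was -0.26 without cow 7186 and -0.58 without cow 7188. Here the orientations disagreed, with -0.86 on the arrays with liver in Cy3 and -0.077 on those with liver in Cy5. Over the 30 cow-days the clones of CPT1A correlated at 0.36 after cow means were removed. The values of the exchanged arrays correlated at 0.68 across cow-days for CPT1A A and at 0.036 for CPT1A B. Which transcripts each clone picks up was not tested, and the difference between the clones was not tested either.

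CPT2 averaged 0.12 on day 28 (4 cows), against 0.70 on day 1, with an estimate of -0.65 ± 0.32 (SE, unadjusted p = 0.0499, adjusted p = 0.631 by limma). Its values were 0.43, -0.41, 0.67 and -0.19 on day 28 for cows 6983, 7079, 7186 and 7188, against 1.48, 0.33, 0.46 and 0.53 on day 1. Cow 7186 alone was higher on day 28. ACSL1 averaged 1.87 on day 28, against 2.60 on day 1, an estimate of -0.73 ± 0.50 (adjusted p = 0.779). It was lower in 5 of 5 cows, but at -1.30 on the Cy3 liver arrays and at -0.17 on the Cy5 liver arrays. ECI1 averaged 1.06 on day 28, against 0.60 on day 1, at 0.46 ± 0.27, and was higher in 4 of 5 cows. ACADVL, ETFB, ACSL5 A and ACSL5 B had estimates between -0.092 and 0.018. The 95% interval of ACADVL reached from -0.46 to 0.49, so shifts within that range were not excluded in either direction.

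**Figure D3:**
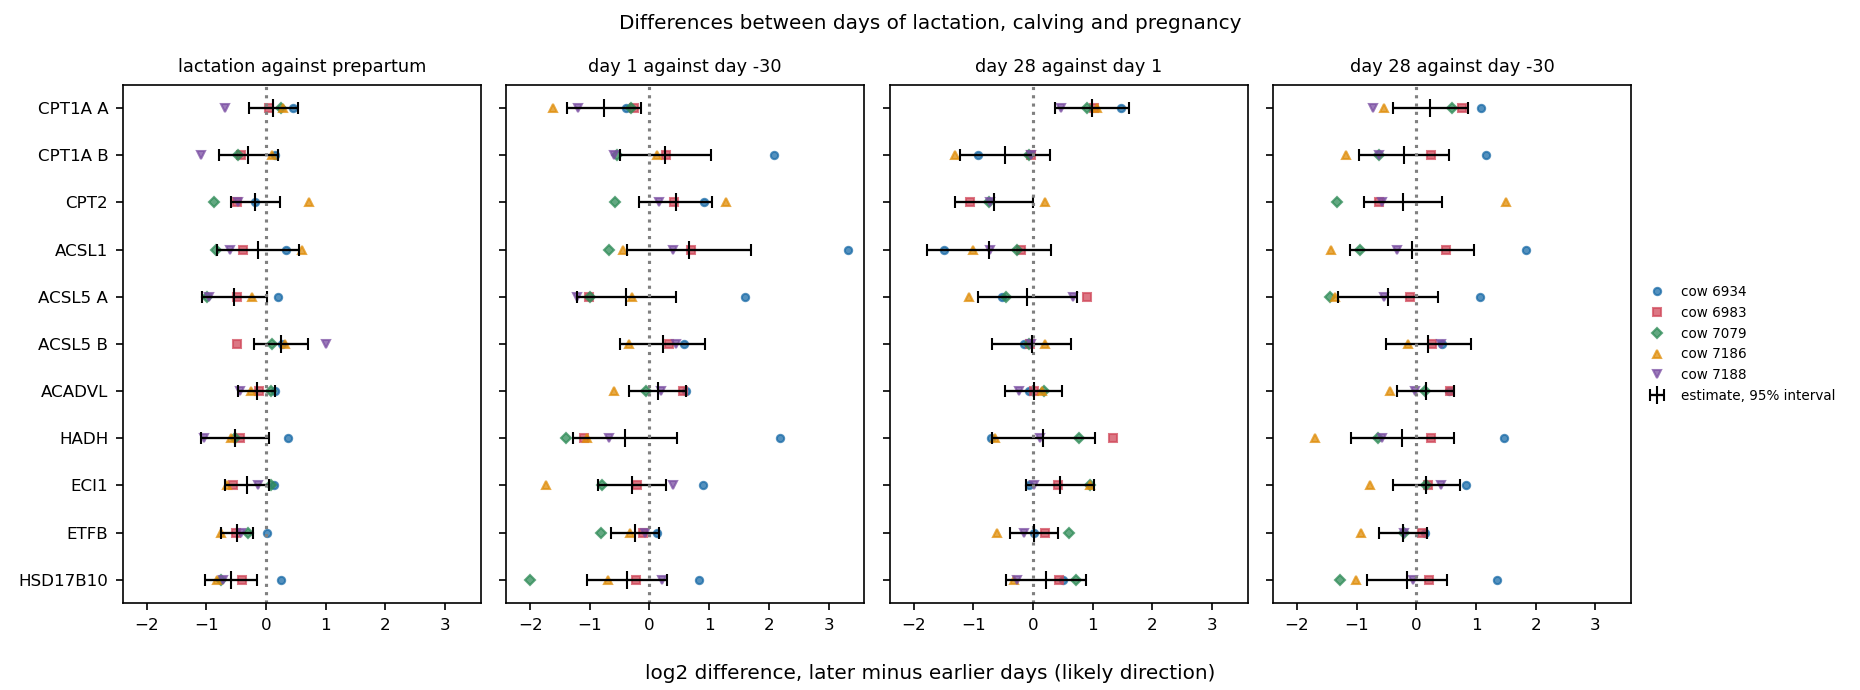
Log2 differences between days (horizontal axis, later minus earlier days, likely direction) for the 11 clones in 4 comparisons. Coloured points are the differences within single cows, and the black bar is the estimate of limma with its 95% interval. For lactation against prepartum the points cover the days that each cow had, which vary between cows. CPT1A A lies below 0 in all 5 cows for day 1 against day -30 and above 0 in all 5 cows for day 28 against day 1, and none of the estimates passed after adjustment.

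For day 28 against day -30, 0 of 11 clones passed, where 0% of all clones did (limma, adjusted p under 0.05). At an unadjusted p under 0.05 there were 0 of 11, against 2.67% of all clones. The estimates reached from -0.48 (ACSL5 A) to 0.24 (CPT1A A), and 7 of 11 were below 0, against 52.1% of all clones. CPT1A A averaged 1.99 on day 28, against 1.75 on day -30. The direction of the median of the 11, -0.16, rested on single cows, since it was 0.12 without cow 7079 and 0.13 without cow 7186, and on the setting, since it was 0.12 with only the Cy5 liver arrays, 0.010 without centring and 0.26 with discordant values missing.

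Lactation was set against the prepartum days as the mean of days 14, 28 and 49 minus the mean of days -65, -30 and -14. Of the 11 clones, 0 passed (limma, adjusted p under 0.05), where 0% of all clones did. At an unadjusted p under 0.05 there were 2, ETFB and HSD17B10, against 3.86% of all clones. Both were lower in lactation, against 2.48% of all clones. Estimates were below 0 for 9 of 11, against 52.2% of all clones, and the exceptions were CPT1A A and ACSL5 B. Differences of single cows for this comparison are the mean of a cow's measured lactation days minus that of its measured prepartum days. The days they cover thus vary between cows, and they are not the fitted estimate. By these differences, 0 of the 11 were lower in 5 of 5 cows, against 3.6% of all clones. The median estimate was -0.30, against -0.0072 for all clones.

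ETFB had ratios from 0.32 to 1.64 with a median of 1.16 in the 12 lactation cow-days, against 1.01 to 2.40 with a median of 1.28 in the 13 prepartum cow-days. Its day means were 0.97, 1.22 and 0.99 on days 14, 28 and 49, against 1.37, 1.44 and 1.66 on days -65, -30 and -14. Single values overlapped between the periods, and days -14, 14 and 49 lacked some of the cows. The estimate was -0.48 ± 0.13 (SE, unadjusted p = 0.00108, adjusted p = 1 by limma), the fourth smallest p-value of 5280. Over the days that each cow had, ETFB was lower in 4 of 5 cows. The differences were -0.51, -0.30, -0.76 and -0.42 in cows 6983, 7079, 7186 and 7188, with 0.0085 in cow 6934. The estimate lay between -0.58 and -0.33 in 21 other settings. The residual SD of ETFB was 0.30, at the 33.3rd percentile of all clones.

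HSD17B10 had ratios from 1.86 to 4.05 with a median of 3.51 in lactation, against 2.70 to 5.25 with a median of 3.55 prepartum, so the medians lay closer together than the fitted estimate. The highest was cow 7079 on day -30 and the lowest cow 7188 on day 49. The estimate was -0.59 ± 0.21 (SE, unadjusted p = 0.0108, adjusted p = 1 by limma), and it was lower in lactation in 4 of 5 cows, with cow 6934 at 0.25. It was -0.21 once every cow-day was brought to a common scale, a setting chosen after seeing the data. ACSL5 A (-0.53 ± 0.27), HADH (-0.52 ± 0.28) and ECI1 (-0.32 ± 0.18) had unadjusted p of 0.0578, 0.0704 and 0.0913. ACADVL was at -0.16 ± 0.15, ACSL1 at -0.14 ± 0.33, CPT2 at -0.18 ± 0.20 and the clones of CPT1A at 0.12 ± 0.20 and -0.30 ± 0.24. ACSL5 B, the exception beside CPT1A A, was at 0.24 ± 0.22 and had its highest day mean, 1.19 ± 0.99 (SD, n = 4), on day 49.

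Other cell type markers were read for the same comparison, and none of their clones passed (limma, adjusted p under 0.05). Of all clones, 52.2% lay below 0. Markers of Kupffer cells and macrophages, the resident phagocytes, had 14 of 16 clones below 0 and a median of -0.43. Their mean over the 16 clones, relative to each clone's own mean, ranged from -0.89 to 0.45 in lactation cow-days, against -0.42 to 1.06 in prepartum cow-days. Hepatocyte markers had 4 of 5 clones below 0 and a median of -0.33, and endothelial markers had 5 of 8 below 0 and a median of -0.037. Lymphocyte markers had 3 of 4 clones above 0 and a median of 0.20, stellate and matrix markers 12 of 16 and a median of 0.075, and bile duct markers 3 of 5 and a median of 0.014. The 17 clones of mitochondrial genes outside fatty acid oxidation had 8 below 0 and a median of 0.012. Leaving out those 5 cow-days in which the pair failed to oppose, the median of the 11 was -0.015, against 0.054 for all clones. Without cow 7188 it was -0.080, and with all values of strongly discordant orientations set missing, a setting also chosen after seeing the data, it was -0.092. The part of these measures in the differences was not tested.

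The ratios of the 11 clones tended to vary together from cow-day to cow-day. After cow means were removed, 44 of 55 pairs of clones had a correlation above 0 over the 28 to 30 cow-days with both values. The median r was 0.36, against 0.012 for pairs of other single-gene clones measured in every cow-day. Those other clones were not matched to the 11 for the height of their ratio. The highest were ACSL5 A with HADH (r = 0.85), ETFB with HSD17B10 (r = 0.82) and CPT1A B with ACSL1 (r = 0.81). The lowest was CPT1A A with CPT2 (r = -0.23), and the clones of ACSL5 correlated at -0.15. These cow-days share arrays, cows and the scale of the ratios, so the correlations are descriptions.

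That scale was measured as the slope of a cow-day on the mean profile of all other clones, which is 1 on average and lower where all ratios of a cow-day are compressed towards 0. The mean of the 11 clones correlated with it at r = 0.84 (Spearman rho = 0.76, n = 30 cow-days of 5 cows), and at r = 0.77 without the 2 slopes farthest from the median. Clones far above the reference rise with this slope largely by construction. No other set of high-ratio clones was set beside the 11, so whether this r is particular to them was not tested. The slope had a median of 0.85 on day 49 (range 0.60 to 1.21), and of 1.17 on day -30 (0.59 to 1.36). The mean of the 11 had a median of 1.06 on day 49, the lowest of the 7 days. The lowest single value was 0.64, on a day -30 cow-day with the lowest slope of all, 0.59. Their part in the differences between days was not tested beyond the common scale. On that scale the lactation median of the 11 was -0.16, with 7 of 11 below 0.

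**Figure D4:**
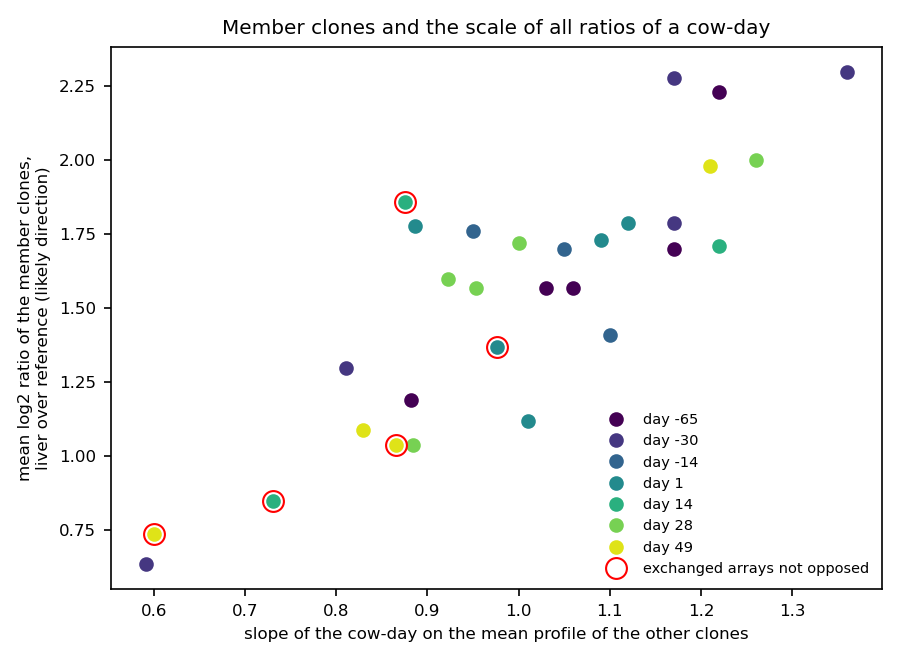
Mean log2 ratio of the 11 clones (vertical axis, likely direction) against the slope of the cow-day on the mean profile of all other clones (horizontal axis, no unit). Each point is 1 of 30 cow-days, coloured by day, and red rings mark the 5 cow-days in which the pair of arrays failed to oppose. The points run from 0.64 at a slope of 0.59 to 2.30 at a slope of 1.36 (r = 0.84). Clones far above the reference rise with this slope largely by construction.

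The dye-exchanged pairs gave 2 readings of each cow-day. The values of the pair correlated across cow-days at 0.68 for CPT1A A, 0.47 for ACADVL and 0.37 for HSD17B10, but at 0.15 or below for HADH, CPT1A B, ECI1, ETFB and ACSL5 B, the last at -0.42. Such a correlation is also low where a clone varies little between cow-days. The distance of the Cy3 liver array from the mean of its pair had an SD of 0.35 over cow-days for ETFB, against 0.44 for HSD17B10, 0.28 for ACADVL and 0.29 for CPT1A A, and of 0.51 to 0.97 for ECI1, CPT1A B, HADH and ACSL5 B. Among the 8 clones with a mean ratio above 1, 10 of 60 arrays had at least 2 clones within 0.3 of the reference. CPT1A B and ACSL1 were near the reference on 10 arrays each, ACSL5 A on 6 and HADH on 4, whereas CPT1A A was so on 2, ACADVL on 1 and HSD17B10 on 0. The day 28 arrays with liver in Cy3 of cows 6934, 7079 and 7186 were among them. On these CPT1A B read -0.24, -0.061 and 0.063, and on the exchanged arrays of the same RNA it read 2.89, 2.86 and 2.92. ACSL1 read -0.29, 0.26 and -0.25 on the same Cy3 arrays, and 3.77, 3.44 and 3.62 on the exchanged ones. The averages of these cow-days thus lie between readings that differ by over 3 log2 units for ACSL1 in 3 cows. The cause was not tested.

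**Figure D5:**
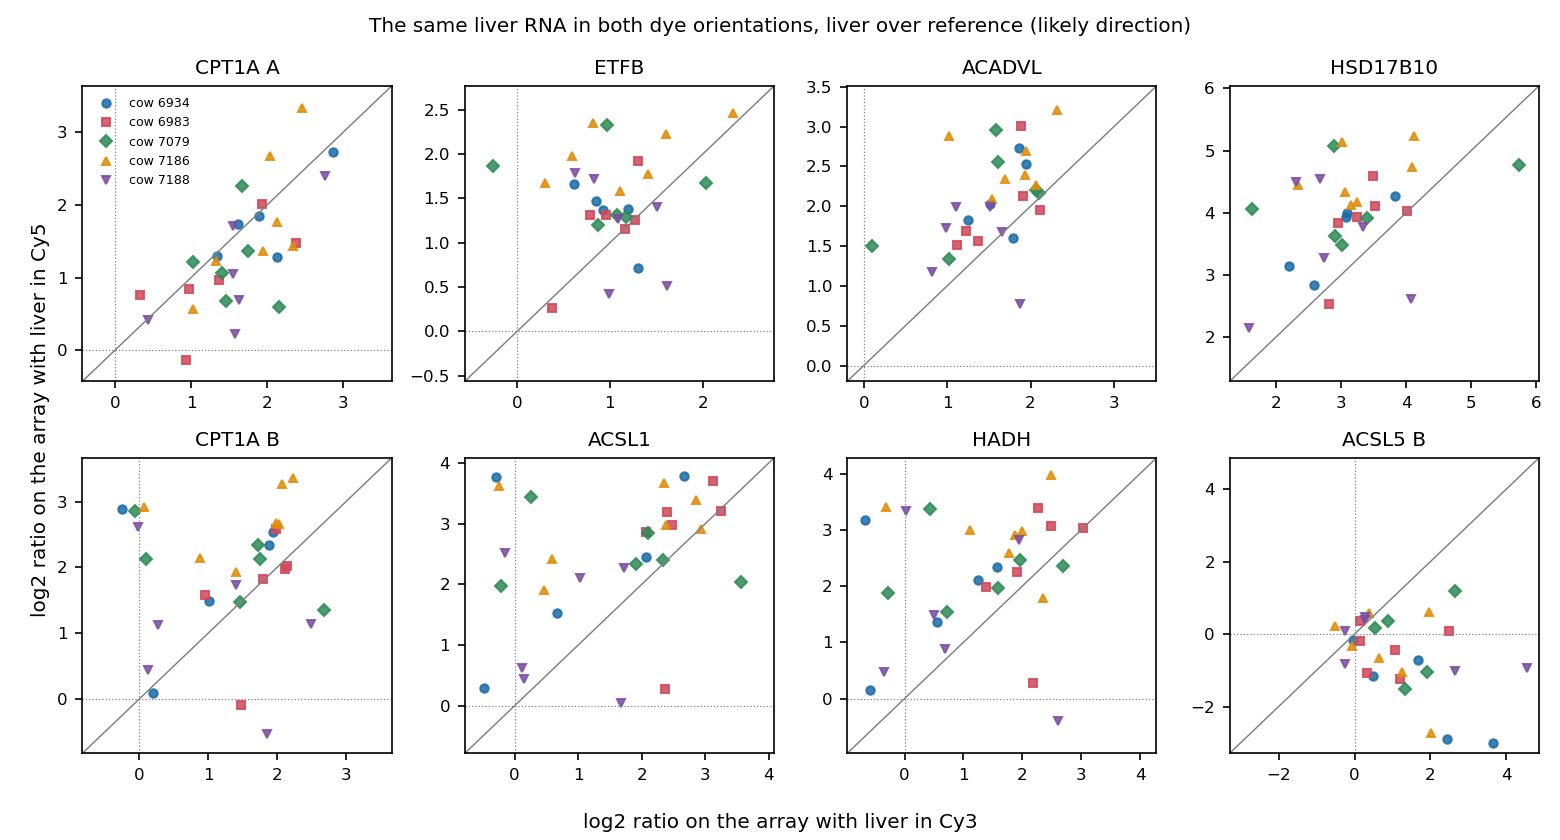
Log2 ratio of liver over reference (likely direction) with liver in Cy5 (vertical axis) against that with liver in Cy3 (horizontal axis) for 8 of the 11 clones, with 1 point per cow-day, coloured by cow, and the line of equal values. CPT1A A lies along the line (r = 0.68), CPT1A B, ACSL1 and HADH have points near 0 on 1 axis alone, and most points of ACSL5 B lie below the line.

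The nearest profiles among 4870 clones of other single genes measured in every cow-day, after cow means were removed, were as follows. CPT1A B was most like TGOLN2 (r = 0.91) and DERL2 (0.86), CPT2 like CMTR1 (0.76) and PJA1 (0.72), and ACSL1 like HAVCR1 (0.85) and SLC25A20 (0.83). ACSL5 A was most like EPAS1 (0.86) and ACAD8 (0.84), ACADVL like CTSB (0.80) and HSD17B8 (0.79), and HADH like EBP (0.89) and C1QB (0.87). ECI1 was most like SULT1A1 (0.93) and TST (0.90), ETFB like PRDX5 (0.83) and STXBP2 (0.83), and HSD17B10 like SLC29A1 (0.88) and FCGRT (0.87). Among these names, SLC25A20 and ACAD8 belong to the fatty acid oxidation lists, as the carnitine-acylcarnitine translocase and as an acyl-CoA dehydrogenase of valine breakdown. C1QB belongs to the list of Kupffer cell and macrophage markers. Each r rests on 30 cow-days, or 29 for CPT2, of the same 5 cows.

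Other genes of the pathway were read from lists. None of them passed in any of the 4 comparisons between days (limma, adjusted p under 0.05), and 0 had an unadjusted p under 0.05 for lactation against prepartum. For lactation against prepartum, other transport and activation genes had 3 of 6 clones below 0 with a median of -0.034, other mitochondrial beta-oxidation genes 4 of 9 with a median of 0.065, peroxisomal and omega oxidation genes 4 of 7 with a median of -0.084, and regulators 4 of 6 with a median of -0.069. SLC25A20, which exchanges acylcarnitine for carnitine between CPT1A and CPT2, was at -0.34 ± 0.21 (SE), lower in 4 of 5 cows. The acyl-CoA-binding protein DBI was at 0.42 ± 0.25 and the fatty acid transporter SLC27A1 at -0.27 ± 0.15. ACAD8 was at -0.35 ± 0.26 and lower in 5 of 5 cows by 1 clone, and at 0.065 ± 0.093 and higher in 4 of 5 cows by the other. ACADS, the short-chain dehydrogenase, was at -0.30 ± 0.27, and the isomerase ECI2 at -0.24 ± 0.23 by 1 clone and 0.23 ± 0.27 by the other.

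In peroxisomes, the thiolase ACAA1 was at -0.64 ± 0.35 by 1 clone and -0.12 ± 0.35 by the other, the sterol carrier and thiolase SCP2 at 0.46 ± 0.42 and catalase (CAT) at -0.27 ± 0.30. The ketone body list held 1 tested clone, BDH2, at 0.062 ± 0.16. PDK4, which inactivates the pyruvate dehydrogenase complex, was at 0.14 ± 0.26, and the nuclear receptor RXRB at -0.10 ± 0.11, -0.098 ± 0.11 and -0.091 ± 0.13 by 3 clones. For day 28 against day 1, 8 of 9 clones of the other mitochondrial beta-oxidation genes lay above 0, with a median of 0.38. The 11 clones had 6 of 11 above 0 and a median of 0.015. Of all clones, 38.1% lay below 0, and their median was 0.063. The median of the 11 was -0.18 with only the Cy3 liver arrays and 0.15 without cow 7186, so its sign was not settled.

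Against the reference, peroxisomal and omega oxidation genes had 7 of 7 clones called higher in liver (limma, adjusted p under 0.05), with a median ratio of 2.26. Other mitochondrial beta-oxidation genes had 6 of 9 called higher and 1 lower, with a median of 0.42, and other transport and activation genes had 3 of 6 called higher, with a median of 0.28. Mitochondrial genes outside fatty acid oxidation had 9 of 17 called higher and 2 lower, with a median of 0.27. ACAD8 lay at 2.50 ± 0.32 by 1 clone and at -0.0037 ± 0.22 by the other (SD, n = 5 cows), and ECI2 at 2.20 ± 0.15 and -0.30 ± 0.32. Clones of a gene that differed against the reference were thus not limited to ACSL5. The clones of CPT1A lay close together there, at 1.52 and 1.59.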

How the data were processed

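The 68 arrays of 34 cow-days gave log2 ratios of the 2 dye channels, as deposited by the authors. Per the labels, images came from a Scanarray scanner and were quantified with GenePix. How background, flags and normalization were handled was not stated in the sources used here. The 60 arrays of the larger table (16416 rows) were analysed. The 8 of the smaller table (16896 rows), of another print, entered only the alternative with both tables joined and gave values set beside the others. Arrays were centred on their median, arrays with liver in Cy3 were turned, the exchanged pair was averaged with both required, and the 2 spots of a clone were averaged. Clones needed at least 3 cows on every day, which kept 5280 of 5693. Names came from the platform annotation (5598 clones with 1 gene), updated for 5591 clones. No coordinates are given, because the arrays have no genome build.

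limma 3.58.1 in R 4.3.3 was fitted on all clones with day and cow as terms (19 residual degrees of freedom), with 2-sided tests and Benjamini-Hochberg adjustment at 0.05 over all tested clones. The comparison with the reference tested the 5 cow means against 0. The tests were checked on simulated data with noise drawn independently for each clone and cow-day. A scale shared by all clones of a cow-day was not simulated. The cow was the block, since samples of a cow come from 1 animal. The mean correlation of deviations from the day means was 0.14 within a cow, and -0.033 where both cow and day differed. The residual spread behind the p-values also holds array noise.

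The members and gene lists were chosen with earlier results of these data known. All member clones were named. Of each other fatty acid list, up to 3 clones with the largest estimate for lactation against prepartum were named, and of each member gene's most complete clone the 2 most correlated clones. The other clones of ACAD8, ECI2, ACAA1 and RXRB were added beside them after their values were seen. Alternatives covered centring, scaling, dye orientation, single spots, completeness, array weights, the joined tables, the block and each cow left out.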

Additional observations from a re-analysis of the deposited data

Results flagged for a closer look

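Of 55 groups of 4 or 5 cows checked with Dixon's test at the 95% level, 2 held a cow far from the others, and chance gives about 1 in 20. Both were values of ACSL5 B in cow 7186. On day 1 it had -0.35, where the other 4 cows lay between 0.30 and 0.47. On day 28 it had -0.14, where the other 4 cows lay between 0.25 and 0.36. The day 1 value is the mean of 2.03 with liver in Cy3 and -2.73 with liver in Cy5, and the day 28 value the mean of -0.52 and 0.23.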

How the results depend on the processing

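All 11 clones stayed above the reference except ACSL5 B with only the Cy5 liver arrays (-0.66), and the count of calls was 9 to 11 over all settings, that call of ACSL5 B included. Counts between days stayed at 0 in all settings but one: array weights, whose estimation stopped before its tolerance was reached, called 2 clones for the day effect. The fit with no replicate block, as the cows pair the days, called 0 for the day effect and the 4 comparisons, as with the cow as a block.

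Among 1307 clone values under alternatives, 62 had the opposite sign, and 1 of them, ACSL5 B above, was of a called value. For lactation against prepartum these were CPT1A A with only Cy3 (-0.0069), CPT2 without the cow-days not opposed (0.022), ACSL5 B on a common median absolute deviation (-0.012) and with only Cy5 (-0.091), ACADVL with array weights (0.016) and on the mean-profile scale (0.013), CPT1A B with discordant values missing (0.16), and ACSL1 uncentred (0.0033), without the cow-days not opposed (0.12), with joined tables (0.021), on the mean-profile scale (0.086) and with discordant values missing (0.47). For day 1 against day -30 they were ACSL5 B (-0.26) and ETFB (0.049) with only Cy5 and ACADVL on a common deviation (-0.36). For day 28 against day 1, only Cy5 gave ACSL5 A 0.33, ACSL5 B 0.53, ACADVL -0.15 and ETFB -0.098, only Cy3 gave HADH -0.18, a common deviation gave ACSL5 A 0.039 and ACSL5 B 0.14, discordant values missing gave ACSL5 A 0.72 and ACSL5 B 0.13, no centring gave ACSL5 B 0.025, the mean-profile scale gave ACSL5 B 0.0075, and ETFB was -0.066 without the cow-days not opposed and -0.13 by its second spot. For day 28 against day -30, discordant values missing gave CPT1A B 0.49, ACSL1 0.73, ACSL5 A 0.35, HADH 0.63 and HSD17B10 0.18, only Cy5 gave CPT1A B 0.19 and ACSL1 0.58, a common deviation gave CPT1A A -0.0046 and ACADVL -0.057, no centring gave ACSL1 0.097 and HSD17B10 0.010, and the mean-profile scale gave ACSL1 0.15.

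Leaving out each cow in turn moved ACSL1 between -0.54 and 0.055 for lactation. For day 1 against day -30 it moved CPT1A B between -0.19 and 0.48, ACSL1 between -0.0056 and 0.99, ECI1 between -0.59 and 0.072 and HSD17B10 between -0.68 and 0.028. For day 28 against day 1 it moved ACSL5 A between -0.34 and 0.15, ACSL5 B between -0.075 and 0.015, ACADVL between -0.028 and 0.075, HADH between -0.12 and 0.39 and ETFB between -0.13 and 0.17. For day 28 against day -30 it moved CPT1A B between -0.55 and 0.040, CPT2 between -0.70 and 0.11, ACSL1 between -0.55 and 0.27, HADH between -0.66 and 0.13 and HSD17B10 between -0.54 and 0.12. The mean-profile scale and the removal of discordant values were chosen after seeing the data. Without centring, the median of all clones for lactation was 0.14 and that of the 11 was -0.15. The causes were not tested. The median residual SD of a clone was 0.38, and the 95% interval for lactation had a median half-width of 0.32.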

Other observations

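The smaller table held the same clones for 4 further cow-days, which entered only the setting with both tables joined and no main test. It comes from another array print, so below its values are only set beside those of the larger table. On day 14, CPT1A A had 1.94 in cow 6934 and 2.50 in cow 7188, beside 0.54 to 1.88 in the 3 cows of the larger table. On day -14 it had 1.29 in cow 6934 and 0.88 in cow 7079, beside 0.40 to 1.16. Cow 6934 was measured on both days in this table. Its CPT1A A ratio was 1.94 on day 14, against 1.29 on day -14, and its ECI1 ratio was 1.39 on day 14, against 0.93 on day -14. Its CPT2 ratio was 1.19 on day 14, against 1.05 on day -14, and its ACSL1 ratio 3.11, against 3.08. ACADVL had 0.83 on day 14, against 0.87 on day -14, and HSD17B10 had 3.27, against 3.11. ETFB had 0.66 on day 14, against 0.46 on day -14, which is opposite in sign to its lactation estimate in the larger table. HADH had 2.07 on day 14, against 1.88 on day -14, ACSL5 A 1.72, against 1.82, and ACSL5 B -0.52, against 0.81. CPT1A B was also higher on day 14, by less than its SDs between cows in the larger table. These are 1 cow with no replicate. CPT2 lay above and ACADVL below the range of the larger table in all 4 of these cow-days.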
